A study of Mus musculus with 8 samples.

Results

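The 10 genes described here encode the hypoxia-inducible factors and the proteins that work directly with them. They are the alpha subunits *Hif1a*, *Epas1* and *Hif3a*, the partner subunits *Arnt* and *Arnt2*, the oxygen-sensing prolyl hydroxylases *Egln1*, *Egln2* and *Egln3*, the ubiquitin ligase subunit *Vhl*, and *Vegfa*, a target of the pathway. They were chosen by name from the 50686 genes of the count table, with earlier results of these data known. All 10 had reads in every library and were tested. RNA was taken from ventral hippocampus. The mice were males of the C57BL/6J strain (C57B6/J in the sample labels), aged 8 weeks and housed in groups. Of these mice, 4 were injected with vehicle (libraries 1 to 4) and 4 with 3 mg/kg corticosterone (libraries 5 to 8), the main glucocorticoid (GC) of rodents, and all were killed 3 h later, with 1 mouse per library. Both groups were thus handled and injected, and the dissected piece holds neurons, glia and blood vessels together.

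An alpha subunit pairs with ARNT or ARNT2 and binds DNA at short sequences that contain ACGTG or GCGTG. While oxygen is plentiful, the EGLN enzymes hydroxylate prolines of the alpha subunits, VHL binds the hydroxylated protein, and the proteasome destroys it. The amount of HIF-1 alpha and HIF-2 alpha protein is therefore set largely after translation, and mRNA counts do not measure it. Some splice forms of *Hif3a* hold back the other alpha subunits. The table counts all forms of a gene together, so the 4 annotated transcripts of *Hif3a* cannot be told apart.

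*Hif3a* was the gene with the clearest difference. Its expression was 50.4% higher after corticosterone than after vehicle, and the other 9 genes differed by at most 14.0% in either direction. With edgeR (quasi-likelihood test, p values adjusted by Benjamini-Hochberg over 16018 genes), 0 of the 10 genes passed an adjusted p value of 0.05, where 0.00624% of all genes tested passed. Of the 10, 2 had an unadjusted p under 0.05, *Hif3a* (higher) and *Vegfa* (lower), beside 9.03% of all genes tested. By limma-voom the counts were the same, beside 0.00624% and 9.21% of all genes tested. By DESeq2, the tool the study used, 1 of the 10 genes passed the adjusted threshold, *Hif3a*, beside 0.374% of the genes to which DESeq2 gave an adjusted p value. Over the 10 genes the median log2 fold change was -0.05, and over all genes tested it was 0.00.

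*Hif3a* (ENSMUSG00000004328) lies on the minus strand of chromosome 7 of GRCm38, at chr7:17031507-17062427, and no exon of another annotated gene overlaps its exons. The 250 bases before its start (RefSeq, GRCm38.p6, chr7:17062428-17062677, minus strand) are shown because *Hif3a* carries the largest difference. Those of *Egln2* (ENSMUSG00000058709, gene at chr7:27158658-27166802, bases shown at chr7:27166803-27167052, minus strand) are shown because this gene varied most among the corticosterone libraries and holds the most matches. Capitals mark ACGTG or GCGTG, the core to which these factors bind, read on either strand.

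Hif3a: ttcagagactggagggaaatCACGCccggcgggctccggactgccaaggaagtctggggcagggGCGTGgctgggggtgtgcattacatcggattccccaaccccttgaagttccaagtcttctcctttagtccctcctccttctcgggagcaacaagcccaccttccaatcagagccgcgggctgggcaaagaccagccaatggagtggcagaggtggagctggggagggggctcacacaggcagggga

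Egln2: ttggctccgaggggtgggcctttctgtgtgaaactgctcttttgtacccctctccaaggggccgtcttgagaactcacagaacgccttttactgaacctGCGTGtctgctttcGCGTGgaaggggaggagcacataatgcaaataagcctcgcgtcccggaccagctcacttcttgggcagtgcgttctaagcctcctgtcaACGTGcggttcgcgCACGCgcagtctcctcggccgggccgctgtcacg

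The stretch of *Hif3a* holds 2 matches, at -230 and -186 from the start, and that of *Egln2* holds 4, at -151, -137, -48 and -34, while the window of its other listed start holds 1. Of 32851 RefSeq promoters of the same length, 38.6% hold at least 1 match and 16.7% hold 2 or more, overlapping matches counted separately. These shares are not matched for base content. G and C make up 52.4% of the median promoter, but 62% of the *Hif3a* stretch and 59.2% of the *Egln2* stretch shown. The stretches of *Hif1a* (3 matches), *Egln1* (2), *Arnt* (1) and *Egln3* (1) hold this core as well. Neither *Arnt2* nor *Vhl* has it in this window, and *Vegfa* has it at only 1 of its 2 listed starts. AGAACA, one arm of the site bound by the GC receptor, was found on neither strand in any of these windows, while 16.1% of all promoters hold it. A match is no proof of binding, and *Epas1* has no entry among these sequences.

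In the vehicle libraries 1 to 4, *Hif3a* had 233, 173, 179 and 186 normalized counts. In the corticosterone libraries 5 to 8 it had 327, 256, 279.6 and 296. Every corticosterone library lay above every vehicle library, with vehicle library 1 nearest to them. Among all genes tested, 3.66% had groups that did not overlap, and *Hif3a* was the only one of the 10. The means were 193 ± 27.2 (SD, n = 4) after vehicle and 289.6 ± 29.6 (SD, n = 4) after corticosterone. The log2 fold change was 0.59 (standard error 0.12, 95% interval 0.33 to 0.85, edgeR adjusted p = 0.220), and *Hif3a* ranked 24 of 16018 genes by its p value. An exact permutation test over the 70 assignments of 4 mice against 4 gave a two-sided p of 0.0286, the smallest that it can give. The genes were chosen with earlier results of these data known, and the p values and shares here take no account of that. DESeq2 (Wald test) gave an adjusted p of 0.0110 and a log2 fold change of 0.59. The unadjusted p of *Hif3a* stayed under 0.05 in each of the 8 edgeR fits that left out 1 library, with a log2 fold change from 0.53 to 0.69. Its adjusted p was between 0.0222 and 0.618 in these fits, and it passed 0.05 only without corticosterone library 5, where 10.2% of all genes passed. With no filter on low counts, the adjusted p was 0.0220, and 0.287% of the genes passed.

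**Figure D1:**
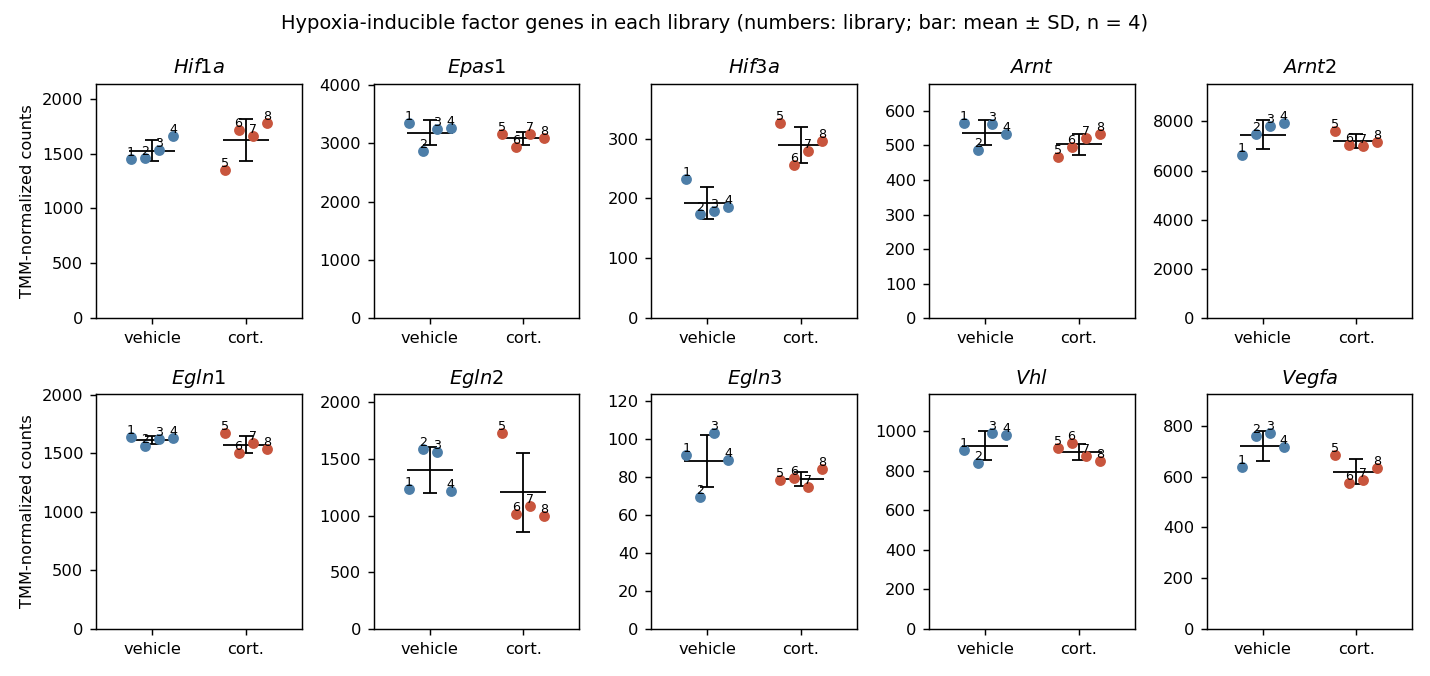
TMM-normalized counts of the 10 genes in the 4 vehicle (blue) and 4 corticosterone (red) libraries, each point numbered by its library, with the mean ± SD as a black bar. For *Hif3a* the corticosterone libraries lie between 256 and 327 and all vehicle libraries at 233 or below, while in the other panels the groups overlap.

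The other alpha subunits were more abundant and differed less between the groups. *Hif1a* (ENSMUSG00000021109, chr12:73901375-73947530) encodes the HIF-1 alpha subunit, found in most cell types. After vehicle it had 1454, 1459, 1532 and 1661 normalized counts. After corticosterone it had 1347, 1711, 1661 and 1781. The groups overlapped, with corticosterone library 5 the lowest of the 8. Its log2 fold change was 0.09 (95% interval -0.10 to 0.28, edgeR adjusted p = 0.707). It moved to 0.17 without corticosterone library 5 (edgeR adjusted p = 0.110) and to 0.04 without library 8. Of its exon bases, 330 overlap an antisense gene (Gm15283) and 148 another gene on its own strand (Gm49321), and reads there are uncertain, since the strand setting of the counting is not given in the sources used here.

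*Epas1* (ENSMUSG00000024140, chr17:86753700-86833410) encodes HIF-2 alpha, which in brain is prominent in endothelial cells. It had 3356, 2867, 3246 and 3265 normalized counts after vehicle. The corticosterone libraries held 3165, 2936, 3157 and 3096. The corticosterone values all lay inside the range of the vehicle values, and the log2 fold change was -0.04 (95% interval -0.19 to 0.10, edgeR adjusted p = 0.813). A change as large as that of *Hif3a* lies outside this interval.

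Per kilobase of exon, which allows a comparison between genes, *Epas1* stood 2.20 ± 0.17 times (SD, n = 4) as high as *Hif1a* in the vehicle libraries and 2.03 ± 0.31 times (SD, n = 4) in the corticosterone libraries. *Hif3a* was far below both. *Epas1* exceeded it 17.3-fold to 21.8-fold in the vehicle libraries but 11.6-fold to 13.8-fold after corticosterone, with no overlap (exact permutation test, two-sided p = 0.0286). *Hif1a* exceeded it 7.11-fold to 10.2-fold and 4.69-fold to 7.60-fold, and these ranges overlapped (exact permutation test, two-sided p = 0.0571). Even after corticosterone, *Hif3a* mRNA therefore remained the smallest share of the 3 alpha subunits.

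**Figure D2:**
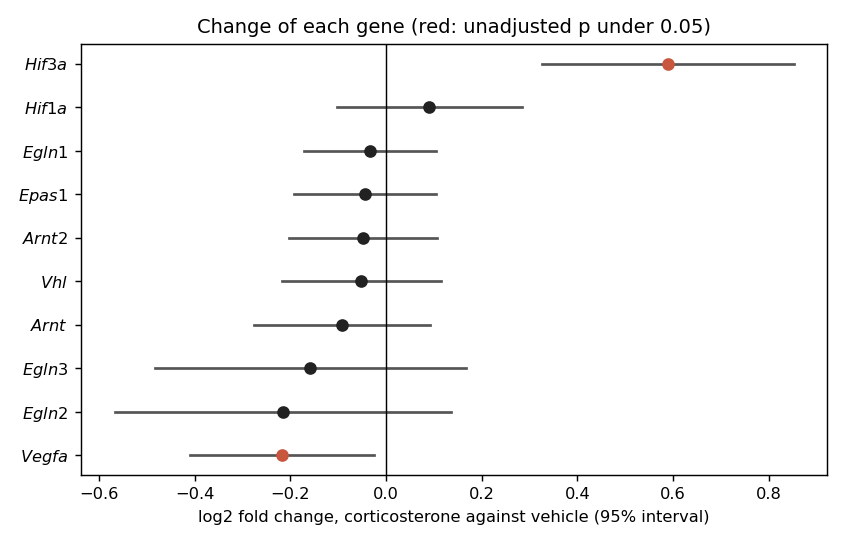
Log2 fold change of each gene between corticosterone and vehicle (point) with its 95% interval from edgeR (line); red points have an unadjusted p under 0.05. *Hif3a* at 0.59 stands apart from the other 9 genes, which lie between -0.22 and 0.09.

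The partner subunits showed no difference beyond the spread between mice. *Arnt2* (ENSMUSG00000015709, chr7:84246278-84410176), the partner that predominates in neurons, was the most abundant of the 10 genes. It had 6620.4, 7480.5, 7798 and 7944 normalized counts after vehicle. With corticosterone the values were 7626, 7052, 7002 and 7162. The difference on the log2 scale was -0.05 (95% interval -0.20 to 0.11, edgeR adjusted p = 0.797), and 214 of its exon bases overlap the antisense gene Gm30873. *Arnt* (ENSMUSG00000015522, chr3:95434388-95497240), the ubiquitous partner, had 566, 487, 563 and 532 normalized counts after vehicle. After corticosterone it had 466, 495, 520.2 and 534, a log2 fold change of -0.09 (95% interval -0.28 to 0.09, edgeR adjusted p = 0.681). Per kilobase, *Arnt2* exceeded *Arnt* 14.5-fold ± 1.70 (SD, n = 4) after vehicle and 15.0-fold ± 1.44 (SD, n = 4) after corticosterone (exact permutation test, two-sided p = 0.714).

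Among the hydroxylases, *Egln1* (ENSMUSG00000031987, chr8:124908587-124949324) encodes PHD2, the main oxygen sensor of the family. It was the steadiest of the 10 genes in the vehicle libraries, with a coefficient of variation of 2.32%. It had 1639, 1557, 1619.8 and 1633 normalized counts after vehicle. The corticosterone libraries held 1669, 1505, 1591 and 1532, a log2 fold change of -0.03 (95% interval -0.17 to 0.10, edgeR adjusted p = 0.844). *Egln3* (ENSMUSG00000035105, chr12:54178981-54203860) encodes PHD3, whose transcription is itself raised by HIF. It had 91.3, 69.5, 103 and 88.8 normalized counts after vehicle. With corticosterone the values were 78.0, 79.2, 74.6 and 83.8, and all 4 values lay within the vehicle range. Its log2 fold change was -0.16 (95% interval -0.48 to 0.17, edgeR adjusted p = 0.690), between -0.26 without vehicle library 2 and -0.08 without vehicle library 3.

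*Egln2*, which encodes PHD1, varied most among the corticosterone libraries. It had 1231, 1589.7, 1563 and 1217 normalized counts after vehicle. After corticosterone it had 1725, 1016, 1080.4 and 996. Corticosterone library 5 was the highest of all 8 libraries, and the other 3 corticosterone libraries were the lowest. The coefficient of variation was 14.6% after vehicle and 29.0% after corticosterone. Over all 8 libraries the log2 fold change was -0.22 (95% interval -0.57 to 0.13, edgeR adjusted p = 0.630). Without corticosterone library 5 it was -0.44, with an adjusted p of 0.0199 from the same test, where 10.2% of all genes passed, and without library 8 it was -0.14 (adjusted p = 0.913). It shares 11 exon bases with *Cyp2t4*, on the opposite strand.

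*Vhl* (ENSMUSG00000033933, chr6:113623959-113631633) encodes the subunit that recognises hydroxylated alpha subunits. It had 903, 837, 989 and 980.3 normalized counts after vehicle. The corticosterone libraries held 916, 941, 872 and 849.6. The groups overlapped, and the log2 fold change was -0.05 (95% interval -0.22 to 0.11, edgeR adjusted p = 0.801).

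*Vegfa* (ENSMUSG00000023951, chr17:46016993-46032369) encodes the vascular endothelial growth factor, a classic product of HIF activity made in brain by astrocytes among other cells. It had 640.3, 759, 771 and 717 normalized counts after vehicle. With corticosterone the values were 686, 574, 589 and 633. The lowest 3 values were those of corticosterone libraries 6 to 8, and library 5 lay among the vehicle values. The log2 fold change was -0.22 (95% interval -0.41 to -0.03, unadjusted p = 0.0292, edgeR adjusted p = 0.532). The exact permutation test gave a two-sided p of 0.0571. Its unadjusted p was above 0.05 without vehicle library 2 (0.0768) or 3 (0.0802), and without corticosterone library 6 (0.0876) or 7 (0.0794).

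Ordered by normalized counts per kilobase of exon, the vehicle levels ran from *Arnt2* (970.3) through *Epas1* (569.5), *Egln2* (500.1), *Egln1* (449), *Vhl* (309), *Hif1a* (259), *Vegfa* (168) and *Arnt* (67.1) to *Egln3* (33.1) and *Hif3a* (28.7). Neighbours whose ranges overlapped were *Epas1* and *Egln2*, *Egln2* and *Egln1*, *Vhl* and *Hif1a*, and *Egln3* and *Hif3a*. The exon length joins the exons of all annotated transcripts of a gene (6.710 kb for *Hif3a*, 2.662 kb for *Egln3*), so this order depends on it. Without division by length, *Hif3a* (193) stood above *Egln3* (88.1) after vehicle as well. Per kilobase, the lower end of the order was turned after corticosterone. *Hif3a* (43.2 ± 4.42, SD, n = 4) then lay above *Egln3* (29.6 ± 1.43, SD, n = 4) in 4 of 4 libraries, with no overlap, whereas after vehicle *Egln3* was the higher in 3 of 4 libraries. *Egln1* (438) and *Egln2* (430.2) also changed places, with overlapping ranges.

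**Figure D3:**
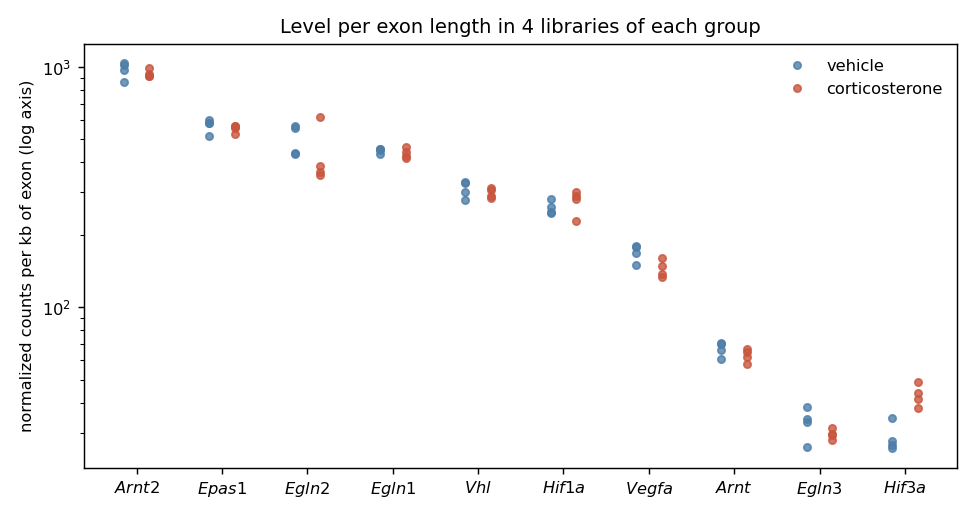
Normalized counts per kilobase of exon on a log axis for each gene, 4 vehicle (blue) and 4 corticosterone (red) libraries as points, genes in the order of their vehicle means. The levels run from 970.3 for *Arnt2* to 28.7 for *Hif3a* after vehicle, and *Hif3a* is the only gene whose red points all lie above its blue ones.

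The libraries differed in ways that touch these genes. Reads on genes numbered 17492159 to 19931987 per library. On the first principal component of all genes tested, corticosterone library 5 scored -19.2 and the other corticosterone libraries 18.9 to 23.5, while vehicle libraries 1 to 3 scored -24.8 to -8.33 and vehicle library 4 scored 5.11. Reads that aligned to several places made up 0.0699% to 0.111% of the vehicle libraries, against 0.0420% to 0.0536% of the corticosterone libraries. *Egln2* followed the component closely. Libraries 2, 3 and 5, with the 3 lowest scores, had 1563 to 1725 normalized counts of *Egln2*, vehicle libraries 1 and 4 had 1231 and 1217, and libraries 6 to 8, with the highest scores, had 996 to 1080.4. *Hif1a* ran the other way, with 1347 in library 5 and 1661 to 1781 in libraries 6 to 8. *Hif3a* did not follow it, since library 5 (327) was its highest value at the negative end. The part of the component in these differences was not tested. *Fkbp5*, a gene induced by GCs in many tissues and the only one past the adjusted threshold with edgeR over all 8 libraries after the filter on low counts, had at most 2373 normalized counts in a vehicle library and at least 3177 in a corticosterone library, library 5 included.

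**Figure D4:**
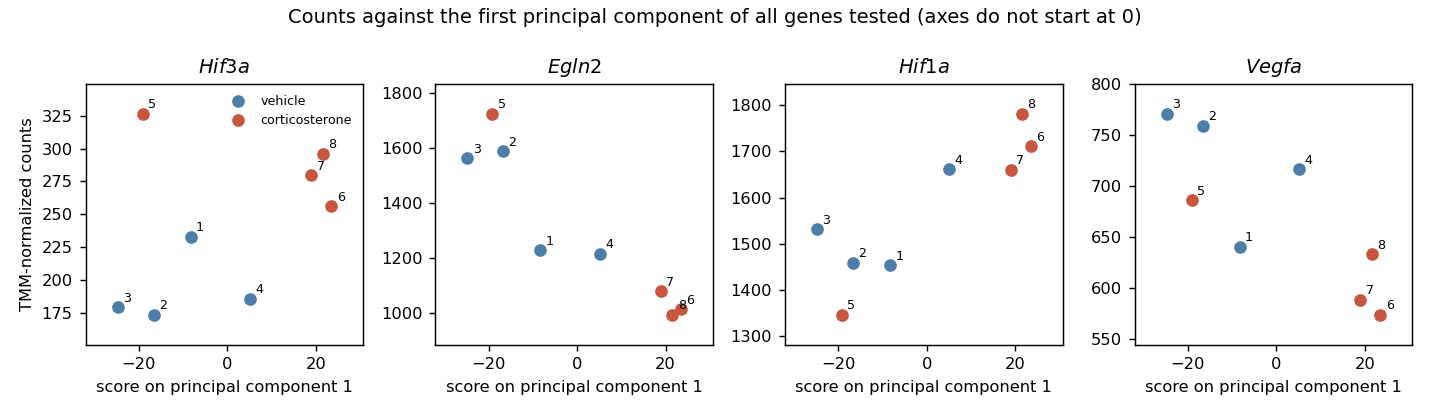
TMM-normalized counts of *Hif3a*, *Egln2*, *Hif1a* and *Vegfa* against the score of each library on the first principal component of all genes tested, vehicle in blue and corticosterone in red, numbered by library. *Egln2* is lowest (996 to 1080.4) at the positive end, whereas *Hif3a* is high in library 5 at -19.2 and in libraries 6 to 8 at 18.9 to 23.5.

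Over the 8 libraries, 45 pairs of the 10 genes were compared on log2 values. The strongest relation was that of *Hif1a* with *Egln2* (Pearson's r = -0.88, exact permutation p = 0.00694, adjusted p = 0.308 over the 45 pairs; Spearman's rho = -0.90, exact permutation p = 0.00456). It was -0.75 without the 2 libraries farthest from the median of *Hif1a*, and -0.86 once the mean of each group was taken off. No pair passed after adjustment over the 45.

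Of the genes around this pathway, 87 others were examined in 5 lists, of which 82 passed the filter on low counts. The lists also hold *Egln3* (among the other HIF targets) and *Vegfa* (among the VEGF genes), which are left out of these totals but stand in the counts and medians of their lists. With edgeR, 0 of the 82 passed the adjusted threshold, 0 with DESeq2 and 0 with limma-voom. At an unadjusted p under 0.05 there were 10 with edgeR, 9 with DESeq2 and 10 with limma-voom. Of all genes to which each tool gave a p value, 9.03%, 5.39% and 9.21% met this level. Those of edgeR were 8 higher and 2 lower after corticosterone, where all genes tested gave 4.51% higher and 4.52% lower. Without corticosterone library 5, 11 of the 82 passed the adjusted threshold, where 10.2% of all genes passed. *Slc2a1* alone passed without vehicle library 1, where 0.117% of all genes passed, and with no filter on low counts, where 0.287% passed.

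The HIF regulators and cofactors (19 genes, all tested) had a median log2 fold change of 0.00, with 10 of them above 0 and 9 below. *Wsb1*, a ubiquitin ligase subunit, averaged 938 ± 33.4 normalized counts in vehicle and 1054 ± 62.3 in corticosterone libraries (SD, n = 4 each), with an unadjusted p of 0.0337 in the fit across all genes by edgeR. *Cited2*, a protein that competes with HIF-1 alpha for its coactivators, had 415 ± 21.4 and 475 ± 36.2 (unadjusted p = 0.0474 in the same edgeR fit). The edgeR adjusted p values of *Wsb1* and *Cited2* were 0.544 and 0.545. With no filter on low counts, their unadjusted p values from edgeR were 0.0605 and 0.0749. *Hsp90ab1*, a chaperone, was the most abundant per kilobase, with a log2 fold change of 0.04. Of the 11 genes for other partners of ARNT and its relatives, 9 were tested, among them *Clock* as the most abundant (log2 fold change 0.09), and none had an unadjusted p under 0.05. *Sim1* and *Sim2* had too few reads to be tested.

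HIF targets in glycolysis and glucose transport (20 genes, all tested) had a median log2 fold change of -0.04, with 7 above 0 and 13 below. Leaving out single libraries, this median ran from -0.12 (without corticosterone library 5) to -0.02 (without corticosterone library 7). *Aldoa*, an enzyme of glycolysis and the most abundant of them, had a log2 fold change of -0.09. *Slc2a1*, the glucose transporter GLUT1, had 2511, 1781, 1791 and 1482 normalized counts after vehicle. After corticosterone it had 2690.3, 2428, 2852 and 2432. Vehicle library 1 overlapped the corticosterone libraries and the other 3 vehicle libraries lay below them. The difference on the log2 scale was 0.46 (SE 0.13, edgeR adjusted p = 0.394), and the adjusted p was 0.0223 with no filter on low counts. Without vehicle library 1 the difference grew to 0.62 (edgeR adjusted p = 0.0410), and without vehicle library 4 it fell to 0.35 (edgeR adjusted p = 0.287). *Gapdh*, of the same pathway, had 961, 962, 1003 and 810.5 normalized counts after vehicle and 1037, 712, 655 and 547 after corticosterone, with library 5 the highest of all 8. Its log2 fold change was -0.34 (edgeR adjusted p = 0.545), and it was -0.55 without library 5 (adjusted p = 0.0129) but -0.22 without library 8 (adjusted p = 0.898). Per kilobase, *Gapdh* stood at only 226 after vehicle, against 15940 for *Aldoa*. Reads that aligned to several places were counted apart from the genes, and their part in this level was not tested.

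Of 29 other HIF targets, *Egln3* included, 26 were tested, and their median log2 fold change was 0.05, or as low as 0.03 without vehicle library 3 or corticosterone library 6. An unadjusted p under 0.05 was found for 4 of them, all higher after corticosterone, where 4.51% of all genes tested were higher at this level. *Kdm3a*, a histone demethylase, had 637, 698, 671 and 737 normalized counts after vehicle. The corticosterone libraries held 786, 903, 842 and 888, with no overlap. The difference on the log2 scale was 0.32 (SE 0.078, edgeR adjusted p = 0.290), and without corticosterone library 5 the adjusted p was 0.0178. *Angptl4*, an inhibitor of lipoprotein lipase, had 45.0 to 88.4 normalized counts after vehicle and 72.1 to 123 after corticosterone (log2 fold change 0.70). *Edn1*, which encodes the vasoconstrictor endothelin 1, had 18.6 to 26.5 and 25.3 to 67.3 (log2 fold change 0.86, and 0.53 without corticosterone library 7, its highest). *Igfbp3*, a binding protein of insulin-like growth factors, had 318 to 376 and 385 to 450.2 normalized counts, with no overlap (log2 fold change 0.27, edgeR adjusted p = 0.499). *Bnip3*, a mitochondrial protein of mitophagy and the most abundant of these targets per kilobase, had a log2 fold change of 0.10. *Car9*, *Epo* and *Nos2* were not tested for lack of reads, and *Epo* had 0 reads in all 8 libraries.

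**Figure D5:**
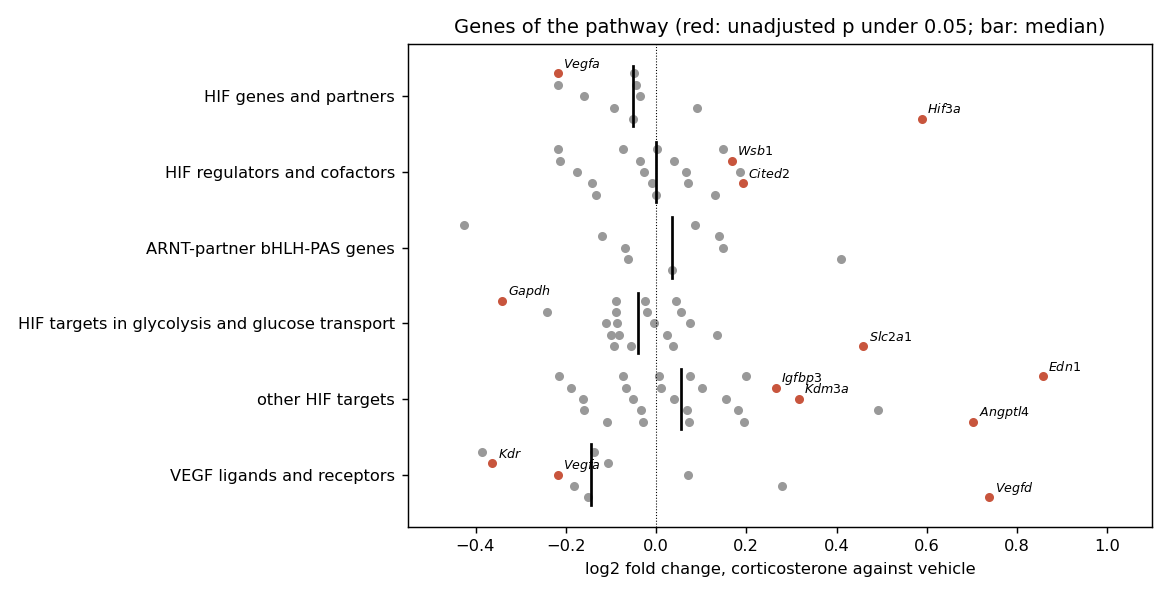
Log2 fold change of every tested gene in the 10 described genes and the 5 lists around them, 1 point per gene, red and named where the unadjusted p was under 0.05, with the median of each list as a black bar. The medians lie between -0.14 for the VEGF ligands and receptors and 0.05 for the other HIF targets.

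The VEGF ligands and receptors (10 genes with *Vegfa*, all tested) had a median log2 fold change of -0.14, with 7 of them below 0. *Vegfb*, the most abundant of them per kilobase, had a log2 fold change of -0.14. *Vegfd*, a ligand that acts mainly on lymphatic vessels, had 45.2, 50.9, 36.2 and 52.3 normalized counts after vehicle. With corticosterone the values were 67.3, 87.9, 52.5 and 100.4, with no overlap though the nearest values, 52.3 and 52.5, differ by less than 1 normalized count. Its log2 fold change was 0.74 (SE 0.22, edgeR adjusted p = 0.415). *Kdr*, the main signalling receptor of VEGF-A on endothelium, had 111, 130.3, 125 and 136 normalized counts after vehicle. After corticosterone it had 102, 101, 84.1 and 103, with no overlap. The difference on the log2 scale was -0.36 (SE 0.13, edgeR adjusted p = 0.499).

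Beside the values of *Vegfa* and *Kdr*, neither of which passed the adjusted threshold, stand those of endothelial markers. Of 10 endothelial markers, 3 had an unadjusted p under 0.05 from edgeR, all with lower values after corticosterone (*Tek*, *Cldn5* and *Tie1*), where 4.52% of all genes tested were lower at this level. The sum over all 10 ran from 2656 to 3011 normalized counts after vehicle and from 2355 to 2577 after corticosterone (exact permutation test, two-sided p = 0.0286). This is the smallest p that the test can give, and it is unadjusted for the number of marker lists. For the sums of the other lists, the same test gave p values from 0.0857 (microglia) to 0.971 (astrocytes). *Pecam1*, a defining marker of endothelium, had a log2 fold change of -0.02, and *Emcn* (0.11) and *Itm2a* (0.10) lay above 0. In bulk tissue, fewer cells of a type and less RNA per cell cannot be told apart, and the part of endothelial content in these results was not tested. Astrocytes, a source of *Vegfa* in brain, had a summed marker level of 71393 to 86626 normalized counts after vehicle and 74309 to 83586 after corticosterone, the second range inside the first. Most of this sum came from *Slc1a2*, which averaged 45625 after vehicle and 45961 after corticosterone. Each of the 8 neuronal markers had at least 2667 reads in every library, as tissue labelled hippocampus should.

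The genes whose log2 values were most like those of *Hif3a* over the 8 libraries were *Gpt2* (Pearson's r = 0.97), a mitochondrial alanine aminotransferase, *Mertk* (0.97), a receptor tyrosine kinase of phagocytosis, *Kcnk1* (0.97), a potassium channel, *Prmt9* (0.96), an arginine methyltransferase, and *Lbp* (0.96), the lipopolysaccharide-binding protein. They were picked as the highest of all genes tested and so carry no test. *Gpt2* had 1479 to 1711 normalized counts after vehicle and 1883 to 2203 after corticosterone, with library 5 the highest, as for *Hif3a*. Those most like *Vegfa* were *Mbd6*, *Cldn5*, *Acvr2b*, *Ephb3* and *Gm3764*, with r from 0.97 to 0.98. *Cldn5*, the tight junction protein of brain endothelium, averaged 317 ± 73.2 normalized counts after vehicle and 192 ± 76.5 after corticosterone (SD, n = 4 each), with library 5 (298) the highest of the latter. For *Epas1* they were *Foxn3*, *Mboat1*, *Zmat3*, *Gsap* and *Gipc3*, with r from 0.94 to 0.96.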

How the data were processed

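The authors aligned 100-bp paired reads from stranded mRNA libraries to mm10 with GSnap and obtained reads per gene from HTSeq-count 0.6.0. They deposited raw counts without normalization for 8 libraries, here grouped by their titles. The annotation release is not given in the sources used here. Symbols, coordinates and exon lengths came from GENCODE M21 (GRCm38), which held 50462 of the 50686 identifiers. In edgeR 4.0.16 (R 4.3.3), filterByExpr removed low genes, TMM scaled the libraries, and groups were compared by quasi-likelihood F tests with Benjamini-Hochberg adjustment. Standard errors were derived from its F statistics. Exact tests used log2 values with a prior count of 2. DESeq2 1.42.0, limma-voom (limma 3.58.1), other normalizations and filters, and leaving out each library were alternatives. The code was tested on simulated data. The study states 4 mice per group and names no batch. Replicate libraries differed by more than sampling noise (at least 3.37 in chi-square per gene between any 2). The genes, lists and tests were chosen with earlier results of these data known. Up to 4 genes per list with an unadjusted p under 0.05, the most abundant gene and the 5 genes most like *Hif3a*, *Vegfa* and *Epas1* were named, and others where stated by value. An item of the lists is not reported here. Marker lists covered endothelial cells, pericytes and smooth muscle, astrocytes, oligodendrocytes, microglia, neurons, choroid plexus and erythrocytes.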

Additional observations from a re-analysis of the deposited data

Results flagged for a closer look

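In 20 sets of 4 values (the 10 genes in either group), 1 had a single value far outside the rest, and about 1 such set would arise by chance. *Egln2* had 1725 normalized counts in corticosterone library 5, against 996 to 1080.4 in the other corticosterone libraries.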

How the results depend on the processing

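No paired analysis was possible because the groups share no replicate number. All 140 values of the 10 genes under 14 alternatives kept their direction. The number past the adjusted threshold, 0 with edgeR, was 1 with DESeq2 and 1 with no filter on low counts, *Hif3a* in both cases with a log2 fold change of 0.59. Leaving out single libraries gave 0 to 2 such genes, 1 to 4 at an unadjusted p under 0.05 and 1 to 3 whose groups did not overlap, with 0.53 to 0.69 for *Hif3a*. The highest values of the 3 counts came without corticosterone library 5, where 10.2%, 29.0% and 24.3% of all genes tested met the same 3 criteria. In the other 7 such fits these shares were 0% to 0.117%, 4.69% to 15.3% and 4.94% to 9.16%. A count of 3 genes without overlap also came without vehicle library 2. The cause was not tested. Of the 82 pathway genes, 29 had an unadjusted p under 0.05 without corticosterone library 5 and 7 to 13 without any other, the 13 without vehicle library 4, where 15.3% of all genes did. With 4 mice per group, a gene with as few reads as *Egln3* (71 to 105 per library) had an interval of -0.48 to 0.17.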

Other observations

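Other cell type markers were summed in the same way, and the genes named here were chosen after their values were seen. Of all genes tested, 4.51% were higher and 4.52% lower at an unadjusted p under 0.05 from edgeR, the level used for the counts here. Microglia markers gave 7970 to 8211 normalized counts after vehicle and 6344 to 8039 after corticosterone, with 2 of 8 at an unadjusted p under 0.05 from edgeR, both lower. *Cx3cr1*, the fractalkine receptor, had 1159 ± 54.0 and 681 ± 163 (SD, n = 4), and *P2ry12*, a purinergic receptor, 634 ± 77.8 and 458 ± 71.1 (SD, n = 4). Oligodendrocyte markers were spread widely, with 60264.5 to 105460 after vehicle, the highest in library 1, and 58769 to 72561 after corticosterone, and 4 of 8 had an unadjusted p under 0.05, all lower. Of 8 markers of pericytes and smooth muscle, *Myh11* and *Tagln* were higher and *Pdgfrb* lower at this level, and the log2 fold changes of 7 lay above 0, those of the pericyte markers *Rgs5* (0.10), *Kcnj8* (0.04), *Abcc9* (0.07) and *Vtn* (0.07) among them. For neurons, 1 of 8 was lower, and for astrocytes *Gjb6*, a connexin, was higher (1376 ± 165 and 1867 ± 46.3, SD, n = 4) and *Gja1* lower.

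Choroid plexus markers gave 414 to 1311 normalized counts after vehicle and 616 to 1366 after corticosterone, with *Folr1* and *Kcne2* not tested. Of the 4 tested, 2 had an unadjusted p under 0.05, both higher, *Clic6* (log2 fold change 1.16) and *Otx2* (1.04, with 5 to 35 reads per library), and the median was 0.85. *Ttr* (0.66, unadjusted p = 0.275 from edgeR) and *Kl* (-0.04, unadjusted p = 0.653 from edgeR) did not reach this level. Erythrocyte markers gave 1591 to 5045 after vehicle, the highest in library 2, and 1545 to 2013 after corticosterone, and 1 of 5, *Hba-a1* (log2 fold change -0.79), was lower at this level.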
